A study of Homo sapiens with 6 samples.

Results

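The genes described here are those that the mitochondrial DNA encodes itself, chosen as the genes of the deposited count table whose symbol starts with MT-. They numbered 37 of 62703 genes, namely 13 protein-coding, 2 rRNA and 22 tRNA genes, and they are all 37 genes that GENCODE release 29 annotates on the mitochondrial chromosome (GRCh38). The cells were HGC-27, an established line of human gastric cancer, kept in RPMI medium with 10% fetal bovine serum. One group carried a control shRNA (shControl) and the other was stably transfected with an shRNA against GXYLT2 (shGXYLT2), an enzyme that adds xylose to glucose on EGF repeats, with 3 libraries each. The labels give the genotype as WT and do not say how many clones the stable cells represent. Nor do they say whether replicates were grown apart, so the tests below compare groups against a spread between libraries that may be technical.

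Mitochondrial DNA is a small circle present in many copies per cell. It is read from both strands into long precursor RNAs, which are cut at the tRNAs that lie between most of the other genes and thereby release the rRNAs and mRNAs. The mRNAs encode core subunits of respiratory complexes I, III, IV and V. The 12S and 16S rRNAs belong to the mitochondrial ribosome and the tRNAs serve its protein synthesis, while nuclear genes supply the other parts of the machinery. Most mitochondrial mRNAs carry a poly(A) tail, the rRNAs only a few adenines, and the MT-ND6 mRNA is known to lack a tail, while the libraries were made with a kit that selects polyadenylated RNA. A level below is therefore the level in such a library, not the amount of RNA in the cell.

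The genes lie close together, which decides what their counts can mean. Of 36 neighbouring pairs 5 overlapped on the chromosome and another 20 met without a gap. The pairs that the results below refer to are shown from GENCODE 29 transcript sequences (GRCh38, plus strand, 5′ to 3′), with the shared bases, or in the last case the whole tRNA between the rRNA genes, in capitals.
MT-ATP8 end and MT-ATP6 start, chrM:8517-8582: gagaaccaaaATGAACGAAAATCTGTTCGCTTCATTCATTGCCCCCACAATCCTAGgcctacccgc
MT-ATP6 end and MT-CO3 start, chrM:9187-9227: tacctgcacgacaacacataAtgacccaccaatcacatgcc
MT-ND4L end and MT-ND4 start, chrM:10750-10776: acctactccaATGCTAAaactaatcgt
MT-RNR1 end, MT-TV and MT-RNR2 start, chrM:1592-1680: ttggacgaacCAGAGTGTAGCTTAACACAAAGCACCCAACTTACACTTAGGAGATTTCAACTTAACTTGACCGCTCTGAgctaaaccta
MT-ATP8 and MT-ATP6 shared 46 bases, which is part of a gene of only 207 bases in the case of MT-ATP8, and MT-ND4L and MT-ND4 shared 7. MT-ATP6 and MT-CO3 shared a single A, the last base of one and the first base of the other, so no tRNA separates them. MT-RNR1 (954 bases) and MT-RNR2 (1559 bases) are separated only by MT-TV, a tRNA of 69 bases. The deposited length of each of the 37 genes equalled its annotated length.

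Strand is the other feature that divides these genes. MT-ND6 is the single protein-coding gene on the light strand, and its sequence is rich in G (35.6%) and poor in C (7.05%), whereas the other 12 held 6.28% to 16.2% G and 29.5% to 36.0% C. The first 30 bases of MT-ND6 and of MT-CO2, a heavy-strand gene that the results below turn on, are shown beside each other, each 5′ to 3′ on its own coding strand with the start codon in capitals.
MT-ND6, minus strand, chrM:14644-14673: ATGatgtatgctttgtttctgttgagtgtg
MT-CO2, plus strand, chrM:7586-7615: ATGgcacatgcagcgcaagtaggtctacaa
In 6 of the 13 protein-coding genes (MT-ND1, MT-ND2, MT-CO3, MT-ND3, MT-ND4 and MT-CYB) the length was not a multiple of 3. Such genes end in an incomplete stop codon, which the added poly(A) tail is known to complete.

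Library totals ranged from 17291138 to 22540099 estimated counts in shControl and from 22188073 to 24898425 in shGXYLT2. GXYLT2 stood at 20.7, 22.8 and 20.2 CPM (counts relative to library size, scaled by TMM factors) in shControl and at 5.27, 6.27 and 5.34 CPM in shGXYLT2, a log2 fold change of -1.91 (SE 0.109, edgeR adjusted p = 6.3e-10, exact two-sided permutation p = 0.1, the smallest possible here). Markers of gastric epithelium were low, since 4 of 5 gastric genes had no count in any library and the 5 epithelial genes summed to 4.31 to 5.39 CPM in shControl and 3.77 to 4.71 CPM in shGXYLT2. CDH1 (2.92 and 2.33 CPM) and KRT8 (1.57 and 1.78 CPM) made up most of this sum, while KRT18, KRT19 and EPCAM each averaged at most 0.151 CPM in either group. Fibroblast markers summed to 369 to 383 CPM in shControl and to 475 to 512 CPM in shGXYLT2, where DCN and LUM, 2 of the 4, rose (edgeR adjusted p = 3.95e-05 and 2.44e-04). The other two did not pass, PDGFRB with 1.28 and 0.673 CPM on average (edgeR adjusted p = 0.0806, all shGXYLT2 libraries lower) and FAP with 8.89 and 8.51 CPM (edgeR adjusted p = 0.853). Leukocyte markers summed to at most 2.17 CPM and endothelial markers to at most 1.11 CPM in any library, with PECAM1 and CDH5 at 0. The 4 long nuclear RNAs used as a sign of RNA quality summed to 726 to 1064 CPM in shControl and to 636 to 710 CPM in shGXYLT2, with MEG3 at 0 throughout. MALAT1, NEAT1 and KCNQ1OT1 did not pass (edgeR adjusted p = 0.107, 0.349 and 0.547). MALAT1 stood at 520, 448 and 661 CPM in shControl and at 406, 424 and 392 CPM in shGXYLT2. The part that the fibroblast markers and the nuclear RNAs have in the results below was not tested.

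Mitochondrially encoded genes were among the most abundant in these cells and held a slightly larger share of the shGXYLT2 libraries. By mean CPM 5 of the 10 highest genes and 11 of the 50 highest were mitochondrial. Their summed share was 5.79%, 5.81% and 5.81% of all counts in the control libraries, by replicate number, and 5.85%, 6.45% and 6.07% in shGXYLT2. The groups did not overlap, but shGXYLT2 replicate 1 lay just above the controls and replicate 2 far above them. The means were 5.80% ± 0.00913 and 6.12% ± 0.301 (SD, n = 3 each), a difference of 0.320 percentage points, and it was 0.158 percentage points without shGXYLT2 replicate 2. The 95% Wilson interval of each library's share, which covers counting error only, reached at most 0.011 percentage points to either side. Protein-coding genes alone held 4.54%, 4.61% and 4.65% against 4.54%, 5.07% and 4.80%, where the groups overlapped. In bulk RNA more cells rich in mitochondria and more mitochondrial RNA per cell cannot be told apart, nor can the copy number of the mitochondrial DNA and its transcription. Short nuclear genes were also higher in shGXYLT2, with a median log2 fold change of 0.28 for those of up to 400 bases. It was -0.02 for those over 2500 bases. The part that gene length has in the share was not tested.

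Of the 37 genes 18 passed the filter on low counts, namely all protein-coding and rRNA genes and 3 tRNA genes. In the test across all 15693 genes that passed, 3 of the 18 rose and 1 fell, at an adjusted p below 0.05 in edgeR's quasi-likelihood test. Among all tested genes 5.31% rose and 6.84% fell, or 12.2% together. The genes that rose were MT-RNR1, MT-CYB and MT-CO2, and the gene that fell was MT-CO3. All shGXYLT2 libraries lay above all shControl libraries in 4 of the 18 (14.6% of all tested genes) and below them in 1 (15.8% of all tested genes). The median log2 fold change was 0.21 over the 18 genes and -0.0057 over all tested genes, and the median absolute log2 fold change was 0.21 and 0.14. Fold changes were above 0 for 13 of the 15 protein-coding and rRNA genes, against 48.8% of tested nuclear genes. However, MT-ND4 (0.06), MT-ATP6 (0.01) and MT-ATP8 (0.23) changed sign under at least 1 of the alternatives. These comparisons are not matched for gene length. The 15 genes had 207 to 1812 bases, while 9267 of 15675 tested nuclear genes had over 2500. Shorter nuclear genes had higher median fold changes, as given below.

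**Figure D1:**
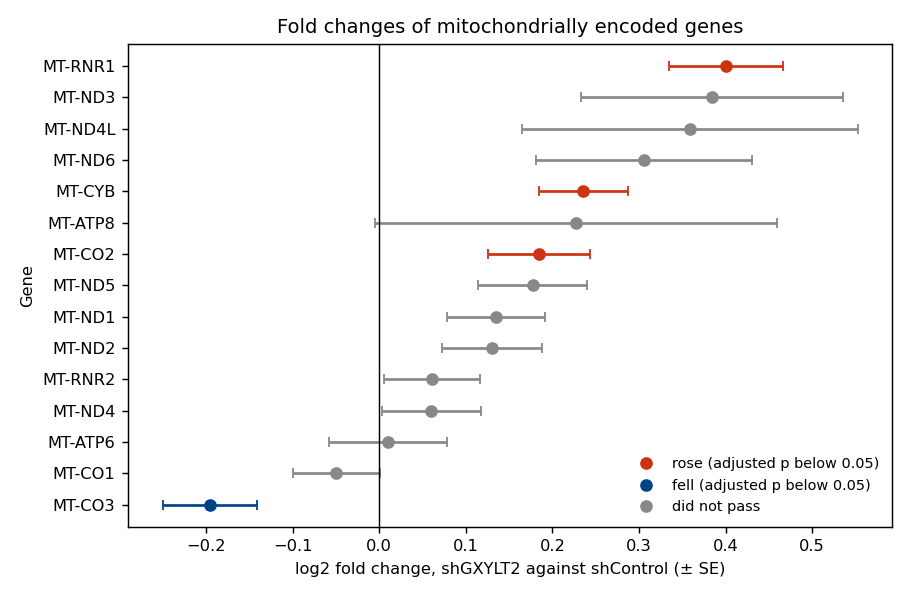
Log2 fold change of shGXYLT2 against shControl for the 13 protein-coding and 2 rRNA genes (horizontal axis), ordered by size, with bars for the standard error of the edgeR fit. MT-RNR1 (0.40), MT-CYB (0.24) and MT-CO2 (0.18) rose and MT-CO3 (-0.20) fell, and the widest bars are those of the short genes MT-ATP8, MT-ND4L and MT-ND3.

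The 2 rRNA genes parted from each other. MT-RNR1, which encodes the 12S rRNA of the small ribosomal subunit, stood at 2190, 2042 and 1995 CPM in the shControl libraries and at 2963, 2818 and 2436 CPM in the shGXYLT2 libraries, replicates in order. Every shGXYLT2 library was higher than every control, with replicate 1 the highest. MT-RNR1 rose 1.32-fold (log2 fold change 0.40, SE 0.0658, edgeR adjusted p = 4.28e-04). It passed the test under all 15 alternative settings tried, with a log2 fold change of 0.34 to 0.48. MT-RNR2, which encodes the 16S rRNA of the large subunit, stood at 10419, 10134 and 9446 CPM against 10097, 10995 and 10204 CPM. These ranges overlapped, and the log2 fold change was 0.06 (SE 0.0554, edgeR adjusted p = 0.543).

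The ratio of the 2 rRNAs needs no scaling between libraries. There were 21.0, 20.1 and 21.1 MT-RNR1 counts per 100 MT-RNR2 counts in shControl, against 29.3, 25.6 and 23.9 in shGXYLT2. The lowest shGXYLT2 value lay above the highest control, and the means were 20.8 ± 0.535 and 26.3 ± 2.79 (SD, n = 3 each). Both rRNA genes together held 1.25%, 1.20% and 1.15% of the library in shControl and 1.31%, 1.37% and 1.27% in shGXYLT2, without overlap. Set against protein-coding counts of the mitochondria, the groups overlapped, with 27.6, 26.1 and 24.8 rRNA counts per 100 protein-coding counts in shControl and 28.9, 27.1 and 26.4 in shGXYLT2. MT-TV, the tRNA between the rRNA genes shown above, had 2 counts in all 6 libraries, both in shGXYLT2 replicate 1.

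Complex IV, cytochrome c oxidase, takes its 3 catalytic core subunits from the mitochondrial DNA, of which MT-CO2 rose, MT-CO3 fell and MT-CO1 did not pass the test. MT-CO2, which carries the copper centre that receives electrons from cytochrome c, stood at 5634, 5666 and 5308 CPM in shControl and at 5766, 6753 and 6352 CPM in shGXYLT2. The groups did not overlap, but replicate 1 of shGXYLT2 exceeded the highest control only narrowly. MT-CO2 rose 1.14-fold (log2 fold change 0.18, SE 0.0593, edgeR adjusted p = 0.0482), a value next to the threshold, and it passed under 7 of 15 alternatives. Leaving out shControl replicates 1, 2 and 3 in turn gave an adjusted p of 0.140, 0.0961 and 0.191, against 0.213 and 0.056 for shGXYLT2 replicates 2 and 3 and 0.240 with offsets for gene length.

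MT-CO3, a core subunit without a metal centre, went the other way. Its level was 6297, 6505 and 6144 CPM in shControl, compared with 5218, 5828 and 5501 CPM in shGXYLT2. All 3 shGXYLT2 libraries were below all controls. MT-CO3 fell by 0.20 on the log2 scale (SE 0.0545, edgeR adjusted p = 0.0236) and passed under 10 of 15 alternatives. Leaving out shControl replicates 1 and 2 gave an adjusted p of 0.117 and 0.109, and leaving out shGXYLT2 replicate 1 gave 0.0952. MT-CO1, which holds the oxygen-reducing heme and copper site, stood at 11765, 12096 and 12014 CPM against 11295, 11930 and 11432 CPM. These ranges overlapped (log2 fold change -0.05, SE 0.0503, edgeR adjusted p = 0.590).

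Within the mitochondrial counts the divergence of MT-CO2 and MT-CO3 was wider than the spread of replicates. There were 112, 115 and 116 MT-CO3 counts per 100 MT-CO2 counts in shControl and 90.5, 86.3 and 86.6 in shGXYLT2, with means of 114 ± 2.08 and 87.8 ± 2.34 (SD, n = 3 each). All controls had more MT-CO3 than MT-CO2 counts and all shGXYLT2 libraries had fewer. This ratio and that of the rRNAs were chosen after the values were seen and have no test. The 3 complex IV genes held 40.6%, 41.2% and 40.7% of mitochondrial counts in shControl and 38.3%, 37.8% and 38.5% in shGXYLT2. MT-CO1 alone held 20.2%, 20.6% and 20.9% against 19.4%, 18.4% and 18.9%. Both sets of shares were lower in every shGXYLT2 library, though shares of 1 total depend on each other.

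**Figure D2:**
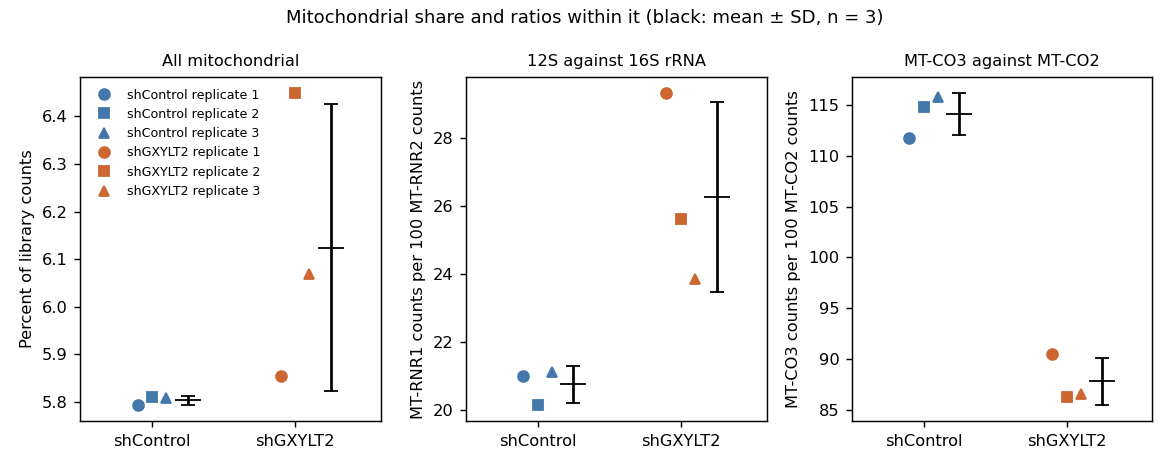
Each point is 1 library (shControl blue, shGXYLT2 orange, shape by replicate) and black bars are the mean ± SD of 3 libraries, for the mitochondrial share of library counts in percent, MT-RNR1 counts per 100 MT-RNR2 counts and MT-CO3 counts per 100 MT-CO2 counts. The vertical axes do not start at 0; the rRNA ratio runs from 20.1 to 21.1 in shControl and from 23.9 to 29.3 in shGXYLT2, and the MT-CO3 ratio from 112 to 116 and from 86.3 to 90.5.

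Complex III has a single mitochondrial gene, MT-CYB, which encodes cytochrome b, the subunit that binds and oxidises ubiquinol. MT-CYB stood at 2356, 2393 and 2459 CPM in shControl and at 2823, 2906 and 2758 CPM in shGXYLT2. Both groups were tight and lay apart. MT-CYB rose 1.18-fold (log2 fold change 0.24, SE 0.0514, edgeR adjusted p = 0.0048) and passed under 14 of 15 alternatives, the exception being the fit without shControl replicate 1 (adjusted p = 0.0639). Its part of the mitochondrial counts was 4.04%, 4.07% and 4.27% in shControl and 4.85%, 4.48% and 4.56% in shGXYLT2, without overlap.

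Complex I, the NADH dehydrogenase, takes 7 membrane subunits from the mitochondrial DNA. None of the 7 genes passed in edgeR, DESeq2 or limma-voom, while 12.2% of all tested genes passed in edgeR. An unadjusted p below 0.05 in edgeR was reached by 5 of the 7. The share of all tested genes below that unadjusted p was not computed, so the count cannot be set against it. MT-ND1, whose protein joins the membrane arm to the arm that oxidises NADH, stood at 3805, 3893 and 3817 CPM in shControl and at 3898, 4471 and 4275 CPM in shGXYLT2. The shGXYLT2 values were all above the controls, replicate 1 by little, and the log2 fold change was 0.13 (SE 0.0562, edgeR adjusted p = 0.132). The other 6 genes had overlapping groups. MT-ND2, MT-ND4 and MT-ND5 encode the large subunits related to ion antiporters that line the membrane arm. MT-ND5, the outermost of them, stood at 2802, 2701 and 3191 CPM against 3243, 3460 and 3128 CPM (log2 fold change 0.18, SE 0.063, edgeR adjusted p = 0.0742). MT-ND2 had 3655, 3907 and 3501 CPM against 3779, 4243 and 4085 CPM (log2 fold change 0.13, edgeR adjusted p = 0.164), so that only the highest control, replicate 2, reached into the shGXYLT2 range. MT-ND4 averaged 5446 ± 90.1 and 5678 ± 416 CPM (SD over 3 libraries), with a log2 fold change of 0.06 (edgeR adjusted p = 0.560).

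The 3 small complex I genes had the widest spread. MT-ND3, whose protein has a loop at the junction of the arms, stood at 756, 773 and 722 CPM in shControl and at 764, 1158 and 1016 CPM in shGXYLT2 (log2 fold change 0.38, SE 0.151, edgeR adjusted p = 0.184). Replicate 1 of shGXYLT2 was level with the controls, and the other two were well above them. MT-ND4L had the same order among the shGXYLT2 libraries, with 424, 411 and 480 CPM against 422, 676 and 589 CPM (log2 fold change 0.36, SE 0.194, edgeR adjusted p = 0.342). It shares its last 7 bases with MT-ND4, and there were 7.93, 7.49 and 8.72 MT-ND4L counts per 100 MT-ND4 counts in shControl and 7.89, 11.0 and 10.6 in shGXYLT2. MT-ND6, the light-strand gene, stood at 415, 381 and 495 CPM against 472, 616 and 508 CPM (log2 fold change 0.31, SE 0.125, edgeR adjusted p = 0.178). Since it is not given whether counting used strand, its counts, also in the ratio that follows, may include reads from the opposite strand. Per 100 counts of MT-ND5, which lies end to end with it on the opposite strand, MT-ND6 had 14.8, 14.1 and 15.5 counts in shControl and 14.6, 17.8 and 16.3 in shGXYLT2, which overlapped. Without shGXYLT2 replicate 2 the log2 fold changes were 0.24 for MT-ND3, 0.20 for MT-ND4L and 0.18 for MT-ND6, and without shGXYLT2 replicate 1 they were 0.54, 0.53 and 0.39.

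Complex V, the ATP synthase, takes MT-ATP6, a subunit of its proton channel, and the small MT-ATP8 from the mitochondrial DNA, and neither passed the test. None of edgeR, DESeq2 and limma-voom called either gene, and 0 of 2 had an unadjusted p below 0.05. MT-ATP6 stood at 2223, 2252 and 2240 CPM in shControl and at 1960, 2475 and 2330 CPM in shGXYLT2, so that the controls lay within the wider shGXYLT2 range (log2 fold change 0.01, SE 0.0682, edgeR adjusted p = 0.945). MT-ATP8 stood at 230, 211 and 264 CPM against 196, 329 and 300 CPM (log2 fold change 0.23, SE 0.232, edgeR adjusted p = 0.631). Replicate 1 of shGXYLT2 had the lowest value of all 6 libraries in both genes. There were 10.3, 9.35 and 11.8 MT-ATP8 counts per 100 MT-ATP6 counts in shControl and 9.99, 13.3 and 12.9 in shGXYLT2. The 46 bases that the genes share, printed above, can count for either. Leaving out 1 library moved the log2 fold change of MT-ATP8 between 0.08 (without shGXYLT2 replicate 2) and 0.42 (without shGXYLT2 replicate 1).

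Per kilobase of gene length the 15 protein-coding and rRNA genes spanned a 9.87-fold range of mean levels in shControl and a 9.07-fold range in shGXYLT2. MT-CO2, MT-CO3 and MT-CO1 were highest in shControl, at 8093 ± 289, 8055 ± 231 and 7755 ± 112 CPM per kilobase (SD, n = 3), and their libraries overlapped. MT-RNR2 followed at 6414 ± 321 CPM per kilobase. MT-ND1 (4015 ± 49.8) and MT-ND4 (3952 ± 65.4 CPM per kilobase) overlapped, and MT-ND2 (3539 ± 197) overlapped neither. MT-ATP6 came next at 3287 ± 21.9 CPM per kilobase, below every MT-ND2 library. MT-RNR1 (2176 ± 107), MT-ND3 (2169 ± 75.7) and MT-CYB (2106 ± 45.7 CPM per kilobase) could not be ranked among themselves. MT-ND5 (1599 ± 143) and MT-ND4L (1476 ± 124) overlapped as well, and MT-ATP8 (1133 ± 130) and MT-ND6 (820 ± 111 CPM per kilobase) were lowest. For MT-ND6 the limit on strand given above applies here too. No tRNA lies between MT-ATP8 and MT-ATP6 or between MT-ND4L and MT-ND4. Their values are therefore levels of counts per gene and need not be those of separate RNAs. In shGXYLT2 the order was the same except that MT-CO1 (7492 ± 217) passed MT-CO3 (7035 ± 389) and MT-ND4L (1893 ± 435) passed MT-ND5 (1808 ± 93.0 CPM per kilobase), in each case with overlapping libraries.

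**Figure D3:**
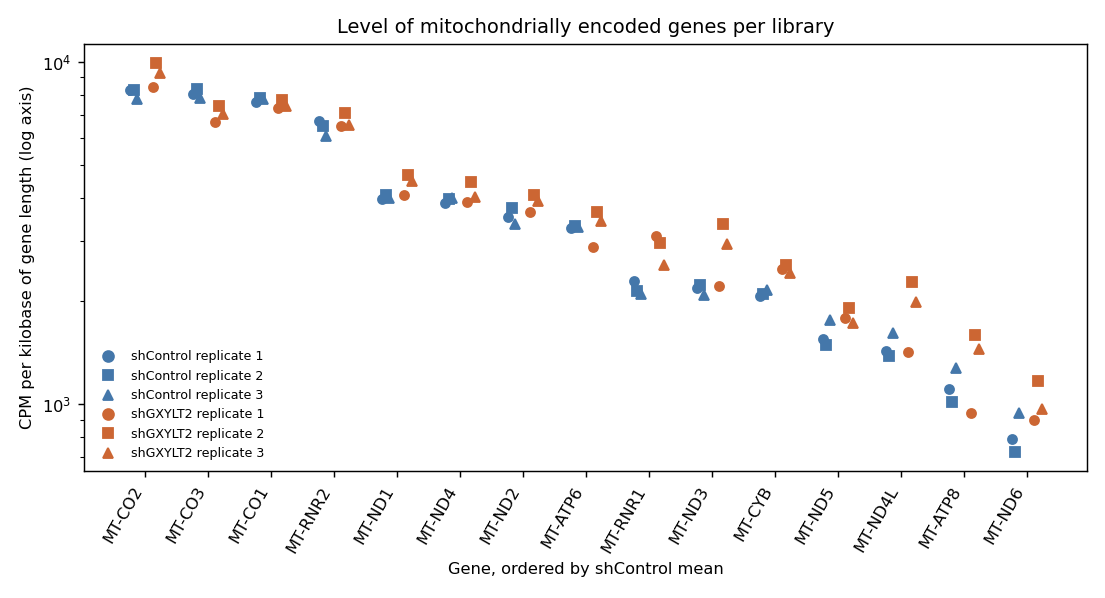
Level of each protein-coding and rRNA gene in each library, in TMM-scaled CPM per kilobase of gene length on a log axis, ordered by the shControl mean (shControl blue, shGXYLT2 orange, shape by replicate). Levels run from 8093 for MT-CO2 to 820 for MT-ND6 in shControl, and the shGXYLT2 points of MT-RNR1 and MT-CYB lie wholly above the controls.

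The spread within shGXYLT2 went with gene length. Replicate 1 was the lowest of the 3 shGXYLT2 libraries in 12 of the 15 protein-coding and rRNA genes (27.7% of tested nuclear genes), and replicate 2 was the highest in 14 of 15 (34.2% of tested nuclear genes). The log2 level of replicate 1 minus the mean of replicates 2 and 3 was -0.68 for MT-ATP8 (207 bases), -0.58 for MT-ND4L (297 bases) and -0.51 for MT-ND3 (346 bases). The difference shrank to -0.25 for MT-ND6 (525 bases) and -0.02 for MT-ND5 (1812 bases). Across the 15 genes it correlated with length (Spearman rho 0.82, n = 15 genes of the same libraries, as a description). Nuclear genes went the same way, with a rho of 0.19 (n = 15675) over a wider range of lengths, so the size of the rho values is not compared. Their median was -0.33 for the 49 of up to 400 bases and 0.03 for the 9267 over 2500 bases. MT-RNR1, at 954 bases, was the exception with 0.18, so its rise was largest in the library where the short genes were lowest.

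**Figure D4:**
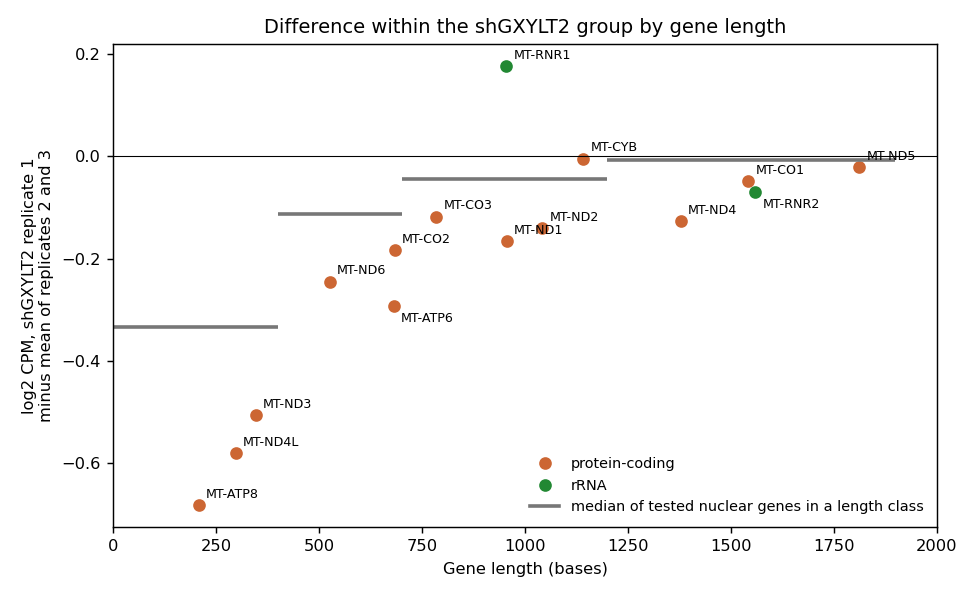
Log2 CPM of shGXYLT2 replicate 1 minus the mean of replicates 2 and 3 (vertical axis) against gene length in bases (horizontal axis) for the 13 protein-coding (orange) and 2 rRNA genes (green), with grey lines for the median of tested nuclear genes in each length class up to 2500 bases (drawn as far as the axis allows). Values run from -0.68 for MT-ATP8 to 0.18 for MT-RNR1.

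Length also went with the group difference itself. Nuclear genes of up to 400 bases had a median log2 fold change of 0.28 (n = 49), those over 400 and up to 700 bases 0.11 (n = 473) and those over 2500 bases -0.02 (n = 9267). The corresponding medians of the mitochondrial genes were 0.36 for the 3 shortest and 0.18 for the 3 of up to 700 bases. Over 700 and up to 1200 bases the median was 0.13 for 5 mitochondrial genes and 0.04 for 1336 nuclear genes. Over 1200 and up to 2500 bases it was 0.06 for 4 mitochondrial genes and 0.0086 for 4550 nuclear genes. Across the 15 mitochondrial genes length and log2 fold change had a Spearman rho of -0.46, as a description. With offsets for gene length, added after the data were seen, MT-RNR1 (0.35), MT-CYB (0.20) and MT-CO3 (-0.27) passed and MT-CO2 (log2 fold change 0.10) did not. The offsets took the log2 fold change of MT-ND3 from 0.38 to 0.22, of MT-ND4L from 0.36 to 0.18, of MT-ND6 from 0.31 to 0.19, of MT-ND1 from 0.13 to 0.08 and of MT-ND2 from 0.13 to 0.08. Without shGXYLT2 replicate 1, 7 of the 18 genes rose and 0 fell at the threshold in edgeR. Among all 16008 genes tested in that fit 612 rose and 789 fell. The 7 were MT-RNR1, MT-CYB, MT-CO2, MT-ND1, MT-ND3, MT-ND4L and MT-ATP8, and 1 lower gene, MT-CO3, had an unadjusted p below 0.05.

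tRNA genes were almost absent from the libraries, which select RNA with poly(A) tails, and what was counted lay nearly all on the light strand. The 3 light-strand tRNA genes that passed the filter are shown whole, with MT-TF, the heavy-strand tRNA gene with the most counts, for comparison. The anticodon, found by searching for a loop of 7 bases between pairing arms whose middle matched the codon in the gene's description, is in capitals.
MT-TA, minus strand, chrM:5587-5655: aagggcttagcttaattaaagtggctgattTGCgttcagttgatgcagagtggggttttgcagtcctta
MT-TN, minus strand, chrM:5657-5729: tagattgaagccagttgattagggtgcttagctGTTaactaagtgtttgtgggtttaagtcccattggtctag
MT-TQ, minus strand, chrM:4329-4400: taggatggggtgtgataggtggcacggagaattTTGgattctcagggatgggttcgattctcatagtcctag
MT-TF, plus strand, chrM:577-647: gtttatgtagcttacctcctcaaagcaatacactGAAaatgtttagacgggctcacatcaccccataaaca
The 8 light-strand tRNA genes had 490 counts over the 6 libraries and 1 of them, MT-TP, had none. The 14 heavy-strand tRNA genes had 20 counts in all, 14 of them in MT-TF, and 9 of the 14 had none. MT-TI, which shares 3 bases with MT-TQ on the opposite strand, was among those with none. A count of 0 allows a level of up to 0.12 to 0.173 CPM in a library, taking 3 counts as the limit. Whether counting used strand is not given in the sources used here, so reads from the opposite strand cannot be told apart from those of a tRNA gene.

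**Figure D5:**
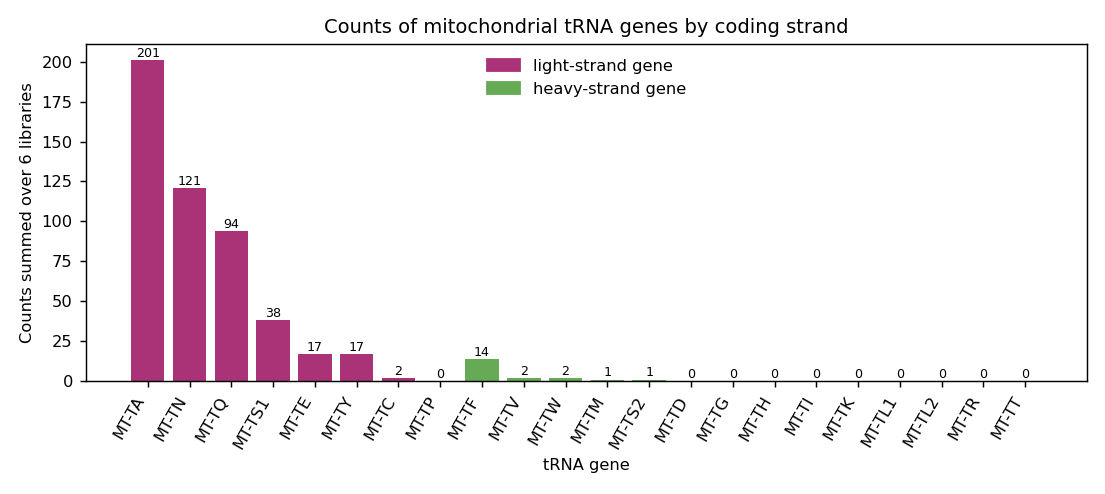
Estimated counts of each of the 22 tRNA genes summed over 6 libraries (bars, values above them), with the 8 light-strand genes at left and the 14 heavy-strand genes at right. Counts reach 201 for MT-TA, 121 for MT-TN and 94 for MT-TQ, and no heavy-strand gene exceeds the 14 of MT-TF.

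No tRNA gene differed between the groups at the threshold in edgeR, DESeq2 or limma-voom, and 0 of the 3 tested had an unadjusted p below 0.05. MT-TA, which decodes alanine codons, had 22, 24 and 33 counts in shControl and 40, 28 and 54 in shGXYLT2 (log2 fold change 0.31, SE 0.283, edgeR adjusted p = 0.548). MT-TN, for asparagine, had 14, 13 and 21 counts against 26, 19 and 28 (log2 fold change 0.28, SE 0.317, edgeR adjusted p = 0.633). MT-TQ, for glutamine, had 11, 9 and 18 against 16, 19 and 21 (log2 fold change 0.24, SE 0.349, edgeR adjusted p = 0.725). These genes rested on 9 to 54 counts per library. Of the 19 tRNA genes that did not pass the filter the most abundant was MT-TS1, for serine, with 4, 0 and 8 counts against 4, 10 and 12. It lies directly after MT-CO1 on the chromosome, on the opposite strand. MT-TY and MT-TE had 17 counts each over all libraries, and 10 tRNA genes had none.

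Copies of mitochondrial genes that lie in the nuclear genome can take reads from the originals. A search by symbol, which also took in MTRNR2L genes, gave 402 such genes, called pseudogenes here. Among them 313 had no count, 10 were tested and 0 passed in edgeR, DESeq2 or limma-voom. Of these 10, 1 had an unadjusted p below 0.05 in edgeR. MTATP6P1 on chromosome 1, bases 633696 to 634376, was the highest at 166, 160 and 183 CPM in shControl and 152, 260 and 214 CPM in shGXYLT2 (log2 fold change 0.29, SE 0.216, edgeR adjusted p = 0.488), and held 76.8% to 81.1% of all pseudogene counts. It was identical to MT-ATP6 at 671 of 681 bases (98.5%). As in MT-ATP6, replicate 1 was the lowest and replicate 2 the highest library of shGXYLT2. There were 7.12 to 8.18 MTATP6P1 counts per 100 MT-ATP6 counts in shControl and 7.75 to 10.5 in shGXYLT2, so the level of MT-ATP6 is uncertain to that extent. With the MTATP6P1 counts added, a fit not planned beforehand, MT-ATP6 had a log2 fold change of 0.03 (edgeR adjusted p = 0.834). MTCO3P12, next to it on chromosome 1 and 98.2% identical to MT-CO3, had 0 to 7 counts per library, against at least 109543 for MT-CO3. MTCO1P12 averaged 28.5 and 31.3 CPM (edgeR adjusted p = 0.360). MTND2P28, 98.4% identical to MT-ND2, averaged 4.67 and 6.30 CPM (edgeR adjusted p = 0.144).

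The nuclear genes that maintain, transcribe and process mitochondrial DNA and RNA showed few calls. Of 92 listed genes 90 were tested, 3 rose and 4 fell, beside 5.31% and 6.84% of all tested genes, and their median log2 fold change was -0.04. Without shControl replicates 1, 2 and 3 in turn 0, 3 and 2 of them passed in either direction. None of the 9 transcription genes passed in edgeR, DESeq2 or limma-voom, with 1 at an unadjusted p below 0.05. POLRMT, the mitochondrial RNA polymerase, averaged 38.8 ± 1.56 CPM in shControl and 38.2 ± 3.43 in shGXYLT2 (SD, n = 3 each, edgeR adjusted p = 0.894). TFAM, which packages the DNA and opens its promoters, averaged 110 ± 3.40 and 99.1 ± 10.0 CPM (adjusted p = 0.195 in edgeR). The initiation factor TFB2M averaged 63.2 and 62.3 CPM (edgeR adjusted p = 0.881) and the elongation factor TEFM 18.1 and 19.1 CPM (edgeR adjusted p = 0.647).

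LRPPRC and SLIRP, proteins that bind each other and hold mitochondrial mRNAs in a stable complex, moved in opposite directions. LRPPRC stood at 761, 751 and 750 CPM in shControl and at 669, 699 and 568 CPM in shGXYLT2, all lower, and fell by 0.22 on the log2 scale (SE 0.066, edgeR adjusted p = 0.0319). SLIRP stood at 64.5, 61.9 and 69.4 CPM against 66.5, 86.6 and 84.8 CPM, with replicate 1 of shGXYLT2 inside the control range, and rose by 0.28 on the log2 scale (SE 0.0878, edgeR adjusted p = 0.0476). In edgeR and DESeq2 they were the only ones of 22 genes of RNA processing and stability to pass, while limma-voom called LRPPRC (adjusted p = 0.0301) and not SLIRP (adjusted p = 0.072). Over all tested genes 5.31% rose and 6.84% fell. With offsets for gene length 7 nuclear genes of mitochondrial gene expression passed, the same number as in the main fit. Values of LRPPRC and SLIRP in that fit are not given here, and the part that gene length has in their changes was not tested. MTPAP, the poly(A) polymerase of mitochondria, averaged 63.8 ± 0.480 and 56.8 ± 4.79 CPM, with all shGXYLT2 libraries below the controls (edgeR adjusted p = 0.140).

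Among 19 genes of mitochondrial DNA maintenance 2 rose and 1 fell, beside 5.31% and 6.84% of all tested genes. DESeq2 called the same 3 genes and limma-voom all but RNASEH1 (adjusted p = 0.0522). The primase-polymerase PRIMPOL averaged 17.7 ± 1.39 CPM in shControl and 22.3 ± 0.949 in shGXYLT2 (SD, n = 3 each), a rise of 0.33 on the log2 scale (edgeR adjusted p = 0.0192). DGUOK, the kinase that supplies purine nucleotides for mitochondrial DNA, rose from 59.5 ± 4.62 to 70.6 ± 6.60 CPM (edgeR adjusted p = 0.0402), and RNASEH1, which removes RNA primers, fell from 106 ± 6.15 to 92.5 ± 4.02 CPM (edgeR adjusted p = 0.0456). Of 7 tested regulators of mitochondrial biogenesis 2 fell, beside 6.84% of all tested genes, and both were also called by DESeq2 and limma-voom. They were the orphan receptors ESRRA, from 34.6 ± 1.93 to 28.2 ± 2.91 CPM (edgeR adjusted p = 0.0273), and ESRRB, from 4.75 ± 0.675 to 2.88 ± 0.232 CPM (edgeR adjusted p = 0.0084). None of 22 RNA modification genes passed in any of the 3 tools, with 0 at an unadjusted p below 0.05 in edgeR, and NSUN2 (273 and 252 CPM, edgeR adjusted p = 0.202) and NGRN (110 and 103 CPM, edgeR adjusted p = 0.380) were the most abundant. None of 12 translation factors passed either, in any of the 3 tools, with 1 at an unadjusted p below 0.05 in edgeR, and TUFM stood at 265 and 254 CPM (edgeR adjusted p = 0.606) and GFM1 at 106 and 99.2 CPM (edgeR adjusted p = 0.429).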

How the data were processed

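Estimated counts of reads for each gene, without normalization, form the single table the authors deposited, and 12.3% of its values were not whole. Another deposited column, of gene length in bases, is a feature value with no sample of its own. The submitters' processing notes name fastp, HISAT2, StringTie and the build GRCh38.p13, while versions, roles and the strand setting were not given in the sources used here. Per the labels' protocols, RNA came from TRIzol extraction and libraries from a stranded mRNA kit, and titles gave groups and replicate numbers.

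Counts were rounded and tested in R 4.3.3 with edgeR 4.0.16 (filterByExpr, TMM factors, robust quasi-likelihood, two-sided, Benjamini-Hochberg adjustment over 15693 genes, threshold 0.05) on all 6 libraries, with group as the only term. Alternatives used DESeq2 1.42.0, limma 3.58.1 (voom), other scalings and filters, each library left out, and gene length offsets. Tests were checked on simulated counts. CPM carry TMM factors, also in summed lists. Shares and ratios use unrounded counts and library totals. Library pairs differed by a chi-square of 1.95 to 18.7 per degree of freedom, so none was a copy. All protein-coding and rRNA genes were named, tRNA genes where tested or among the 3 most abundant of the rest, up to 3 risen and fallen nuclear genes per list (else the 2 most abundant), POLRMT, TFAM, TFB2M, TEFM, LRPPRC, SLIRP and MTPAP always, and the 3 highest pseudogenes. MT-TF, MT-TV, MT-TP, MT-TI and MTCO3P12 were named after their values were seen. Members and lists were chosen with earlier results of these data known. Figures used Python 3.11.15 and matplotlib 3.10.9.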

Additional observations from a re-analysis of the deposited data

How the results depend on the processing

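Of the 4 calls that of MT-RNR1 held under all 15 alternatives, MT-CYB under 14, MT-CO3 under 10 and MT-CO2 under 7. The number of mitochondrial genes that rose was 3, 6 with no filter on low counts, and 1 to 7 with 1 library left out. Over all tested genes 833 of 15693 rose, and 1038 of 30991 without a filter. With 1 library left out 397 to 1038 rose, of 15995 to 16105 tested. The number of mitochondrial genes that fell was 1, 0 with upper-quartile factors and 0 to 1 with 1 library left out. Over all tested genes it was 1074, 963 and 563 to 1309. With a replicate block 3 mitochondrial genes rose (MT-RNR1, MT-CYB and MT-ND3) and 0 fell, beside 606 and 865 of 15693 tested genes. Libraries with the same replicate number in their titles did not deviate together (correlations of 0.0052, -0.043 and -0.023). For replicate 2 the deposited columns carry different numbers in shControl and shGXYLT2, so its correlation does not test pairing by column number. Left-out libraries gave 960 to 2347 calls over all genes (1907 with all libraries) and 0 to 9 among the nuclear genes of mitochondrial gene expression (7 with all libraries). With 1 library left out the log2 fold change of MT-ND4 ran from -0.0027 to 0.104 and that of MT-ATP6 from -0.0645 to 0.104, and signs turned without shGXYLT2 replicate 2 for both and without replicate 3 (-0.0112) for MT-ATP6. With length offsets they turned for MT-ATP6 (-0.0768) and MT-ATP8 (-9.4e-05); none of these genes was called in either fit. The causes were not tested. The mitochondrial share differed by 0.320 percentage points, by 0.213 with the rRNA genes left out of share and total, and by 0.235 for protein-coding genes per nuclear count. The tests of tRNA genes are limited by their few counts, at most 54 in a library.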
